A study of Homo sapiens with 4 samples.

Results

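The cancer-testis antigen families examined here are MAGEA, MAGEB, MAGEC, SSX, CT45, XAGE, GAGE, PAGE and CTAG together with PRAME. Members were found by gene symbol alone in the table of counts, which gave 75 of its 58051 genes: 13 MAGEA, 11 MAGEB, 3 MAGEC, 11 SSX, 9 CT45, 5 XAGE, 13 GAGE, 6 PAGE and 3 CTAG genes and PRAME. PRAME lies on chromosome 22 and the other 74 on chromosome X. GENCODE 29 annotates 71 of the 75 as protein coding; SSX6, SSX8, SSX9 and MAGEA5 are annotated as pseudogenes. The families were chosen with the difference between the groups already known from earlier work on these data, so every difference between the groups given for a member is a description, and the calls support nothing beyond it.

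The samples were 2 libraries of IGROV1 wild-type (WT) cells, an established human ovarian carcinoma line labelled as cisplatin susceptible, and 2 libraries of the cisplatin-resistant (CR) line made from it. The CR line was selected by repeated short pulses of cisplatin, a platinum compound that crosslinks DNA, at rising concentration, with recovery in drug-free medium between pulses. Both lines were collected without drug during log growth, so neither group was under treatment, and polyadenylated RNA was sequenced. Each group is 1 line. The labels call the replicates biological and do not say whether the CR line was cloned, so the spread is that between cultures and not between independent selections.

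Cancer-testis antigens are proteins normally made in the germ cells of the testis, and for some also in placenta, that many tumours make again. In somatic cells most of their genes are kept silent by DNA methylation of the promoter, and loss of that methylation is the usual setting of their return. Because peptides of these proteins reach the cell surface on HLA class I molecules, they are targets of T cell therapies and vaccines. Many of the X-linked families have expanded into near-identical copies.

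The promoters of 6 members, chosen after their values were seen, are printed because they stand for the kinds of behaviour described below: SSX5 and CT45A1 were higher in CR, PAGE1 was abundant in both lines, and XAGE2, MAGEC1 and MAGEC2 had 0 to 2 counts in CR. Each run is the 250 bases before the RefSeq start, read 5′ to 3′ on the strand of the gene (GRCh38.p14), and capitals mark CG dinucleotides, the sites of DNA methylation. The windows are chrX:48196796-48197045 on the minus strand for SSX5, chrX:135713389-135713638 on the plus strand for CT45A1, chrX:49695985-49696234 on the minus strand for PAGE1, chrX:52368771-52369020 on the plus strand for XAGE2, chrX:141903644-141903893 on the plus strand for MAGEC1 and chrX:142205291-142205540 on the minus strand for MAGEC2.
SSX5: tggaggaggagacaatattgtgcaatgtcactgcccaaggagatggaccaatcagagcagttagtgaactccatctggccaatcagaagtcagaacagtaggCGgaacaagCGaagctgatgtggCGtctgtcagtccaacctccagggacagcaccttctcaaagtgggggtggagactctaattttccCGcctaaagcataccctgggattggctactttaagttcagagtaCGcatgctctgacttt
CT45A1: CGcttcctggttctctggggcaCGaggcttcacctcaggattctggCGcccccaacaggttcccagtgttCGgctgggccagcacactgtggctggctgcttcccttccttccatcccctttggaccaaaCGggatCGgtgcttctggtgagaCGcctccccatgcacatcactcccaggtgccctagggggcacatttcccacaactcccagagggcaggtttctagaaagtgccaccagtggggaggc
PAGE1: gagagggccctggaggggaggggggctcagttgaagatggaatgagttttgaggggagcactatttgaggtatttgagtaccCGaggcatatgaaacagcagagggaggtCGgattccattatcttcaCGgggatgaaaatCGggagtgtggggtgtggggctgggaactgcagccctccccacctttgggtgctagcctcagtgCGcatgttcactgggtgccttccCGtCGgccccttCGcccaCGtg
XAGE2: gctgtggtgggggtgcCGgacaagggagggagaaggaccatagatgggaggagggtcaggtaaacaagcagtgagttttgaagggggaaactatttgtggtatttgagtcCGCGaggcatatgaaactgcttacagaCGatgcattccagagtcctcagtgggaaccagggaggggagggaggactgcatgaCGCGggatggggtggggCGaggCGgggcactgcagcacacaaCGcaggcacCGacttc
MAGEC1: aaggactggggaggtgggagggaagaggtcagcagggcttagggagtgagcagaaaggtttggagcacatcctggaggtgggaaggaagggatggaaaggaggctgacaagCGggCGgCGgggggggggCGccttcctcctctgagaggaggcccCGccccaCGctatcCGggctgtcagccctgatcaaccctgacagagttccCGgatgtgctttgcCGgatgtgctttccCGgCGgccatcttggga
MAGEC2: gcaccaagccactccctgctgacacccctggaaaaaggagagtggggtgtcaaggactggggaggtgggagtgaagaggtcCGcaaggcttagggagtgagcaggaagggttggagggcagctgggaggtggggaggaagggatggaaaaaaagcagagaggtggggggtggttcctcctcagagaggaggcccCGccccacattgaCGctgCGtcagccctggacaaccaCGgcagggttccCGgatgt

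These windows held 5 CG dinucleotides in SSX5, 7 in CT45A1, 9 in PAGE1, 10 in XAGE2, 11 in MAGEC1 and 6 in MAGEC2. PAGE1 and XAGE2, which differed in their behaviour, were close in this number. Over the 57 members that matched the RefSeq table by symbol the median was 8, with a range of 1 to 18. Over all 27305 promoters in that table the median was 11. For some members the RefSeq start lies far from the GENCODE start, such as 188705 bases for GAGE12B, 56350 for MAGEC3 and 23832 for MAGEA11. MAGEA11 gave the highest number, 18. The RefSeq start of CT45A1 lies 186 bases inside its GENCODE gene, so most of its printed window does too. The median number of CG dinucleotides was 8 in the 15 matched members with at least 10 counts and 8 in the 28 with 0 counts. The 28 include near-identical GAGE copies counted separately, whose 0 counts do not show that the genes were silent. The letters CCGGAA, a form of the ETS family site, were searched on both strands. They occurred in 5 of the 57 windows (8.77%), against 14.8% of all promoters. CT45A10 held 2 matches to CCGGAA, in a window whose RefSeq start lies 4358 bases from its GENCODE start. PRAME held 1, and none was found in the 6 windows printed. Other forms of the site, such as the CCGGAT in the MAGEC1 and MAGEC2 windows, were not searched. Among the 15 pairs of printed windows, the longest shared runs were 20 bases between MAGEC1 and MAGEC2 (aaggactggggaggtgggag) and 15 bases between PAGE1 and XAGE2 (cgaggcatatgaaac). The other 13 pairs shared at most 9 bases. MAGEC1 and MAGEC2, which share the first run, both had 0 to 2 counts in each CR library. PAGE1 and XAGE2, which share the second, differed in their counts: PAGE1 was abundant in both lines and XAGE2 had 0 counts in CR.

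The members together took 558 to 675 CPM (counts scaled to a fixed library size, with TMM adjustment) in WT and 646 to 713 CPM in CR and the ranges overlapped. The makeup differed. PAGE1 and PRAME held 89.8% and 85.8% of the members' counts in WT 1 and WT 2 and 67.3% and 68.0% in CR 1 and CR 2. Of the 75 members, 36 had 0 counts in all 4 libraries, 19 had 1 to 9 counts in total and 20 had at least 10. A count of 0 in a library allows up to 0.119 to 0.129 CPM (3 counts, counting error only).

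Library totals ranged from 23886257 to 24727362 counts. Of 17304 genes that passed edgeR's filter on low counts, 13.5% were called at an adjusted p of 0.05 or less (quasi-likelihood test of edgeR, Benjamini-Hochberg adjustment), 942 as higher and 1402 as lower in CR. The counts of calls depend on single libraries: leaving out WT 1 or WT 2 gave 7322 and 7879 calls over all genes, and leaving out CR 1 or CR 2 gave 1420 and 1538. The WT libraries differed more from each other than the CR libraries did, with median absolute deviations of the log2 ratio of 0.645 and 0.246. Of 11 markers of ovarian and Mullerian epithelium 9 were tested, with 2 higher and 5 lower in CR, and CDH6 had 0 counts. Among the 5 lower, KRT7 fell from 395 ± 203 to 5.02 ± 0.332 CPM and KRT8 from 1622 ± 195 to 628 ± 10.9. MSLN fell from 191 ± 71.0 to 45.9 ± 1.03 CPM and MUC16 from 36.0 ± 19.3 to 5.70 ± 2.80. The 2 higher were CDH1, from 79.7 ± 39.7 to 244 ± 19.6 CPM, and EPCAM, from 116 ± 3.95 to 209 ± 20.8. Markers of spermatogenic cells summed to 0.471 and 1.17 CPM in WT and 0.677 and 1.06 CPM in CR, with DAZL, PRM2, TNP1 and ZPBP at 0 counts. Leukocyte markers summed to 2.01 to 2.18 CPM in WT and 2.39 to 2.66 CPM in CR. Fibroblast markers summed to 44.7 to 73.5 CPM in WT and 9.90 to 9.91 CPM in CR, with COL1A2, DCN and LUM at 0 counts. Of the tested fibroblast markers, COL1A1 fell from 44.3 ± 18.2 to 1.38 ± 0.369 CPM, and THY1, PDGFRA and PDGFRB were not called. Endothelial markers summed to 67.0 to 85.3 CPM in WT and 29.8 to 33.4 CPM in CR. The 3 endothelial markers differed in direction: CDH5 fell from 44.0 ± 3.31 to 0.989 ± 0.0475 CPM, PECAM1 rose from 0.232 ± 0.146 to 3.53 ± 0.360 CPM, and VWF was not called. The part of these markers in the results on the families was not tested. In bulk RNA, fewer cells expressing a gene and less RNA per cell cannot be told apart.

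Of the 75 members, 16 passed the filter on low counts; 4 were higher in CR, 7 were lower and 5 were not called. Over all genes tested 5.44% were higher and 8.1% lower. A gene enters the test only with enough counts in 1 of the groups, so the 16 are not a sample of the families and their count is not evidence about them. The CR libraries lay apart from the WT libraries in CPM for 14 of the 16, and the same held for 55.3% of tested genes with an annotated length. The median log2 fold change was -0.36 over the 16 members and -0.01 over all genes tested. The plot of the members by library shows the losses and gains side by side.

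**Figure D1:**
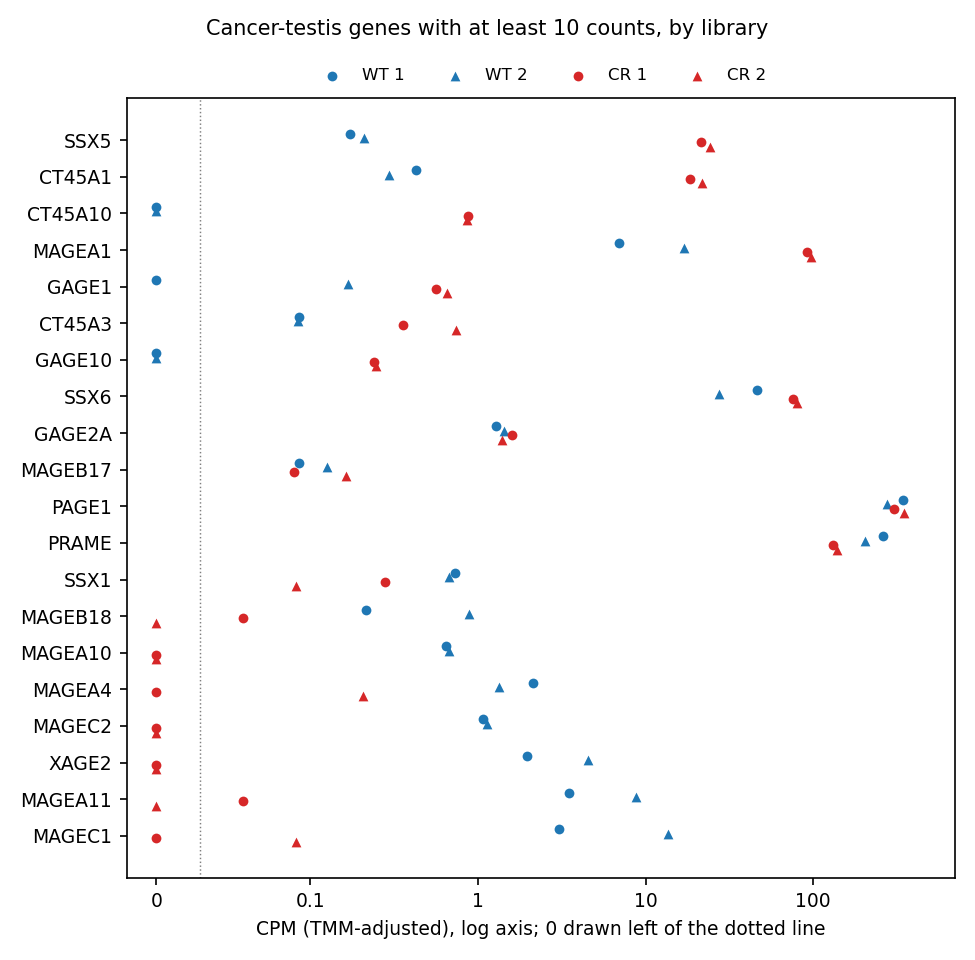
CPM of the 20 genes with at least 10 counts (x axis, log scale, with 0 drawn left of the dotted line) in each of the 4 libraries, WT in blue and CR in red, ordered from the largest rise in CR to the largest fall. SSX5, CT45A1, CT45A10 and MAGEA1 lie far to the right in CR, while MAGEC1, MAGEA11, XAGE2, MAGEC2 and MAGEA10 are at or next to 0 in CR.

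The MAGEA genes went both ways. MAGEA1, which encodes the tumour antigen through which T cell recognition of this class was first described, lies at chromosome X, 153179285 to 153183880 on the plus strand (GRCh38), and its transcripts share 0% of their 75-base windows with another gene. It had 163 and 405 counts in WT and 2301 and 2377 in CR. Both CR libraries lay well above both WT libraries, and the WT pair itself differed. It rose 7.85-fold, from 11.97 ± 7.06 CPM in WT to 94.4 ± 3.98 CPM in CR (each ± gives the SD over the n = 2 libraries of a group, as in all later values; log2 fold change 2.98, SE 0.42). That log2 fold change was 2.47 without WT 1 and 3.75 without WT 2.

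MAGEA11, whose product binds the androgen receptor as a coregulator (chromosome X, 149688228 to 149717266, plus strand), moved the other way. It had 82 and 210 counts in WT and 1 and 0 in CR, a change from 6.15 ± 3.73 to 0.0199 ± 0.0282 CPM. The ratio of WT to CR was 306, with a 95% counting interval of 54.6 to 12147. It was called lower, with a log2 fold change of -7.93 (SE 0.93) that reached -10.2 without CR 1 and -7.09 without CR 2.

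MAGEA4, a target of engineered T cell receptors (chromosome X, 151912509 to 151925170, plus strand), had 50 and 32 counts in WT and 0 and 5 in CR. It fell from 1.74 ± 0.567 to 0.102 ± 0.145 CPM (log2 fold change -4.04, SE 0.91). This call rests on CR 1: without that library the log2 fold change was -3.05 and the gene was not called, and without CR 2 it was -8.39. MAGEA10 (chromosome X, 152133310 to 152138578, minus strand) had 15 and 16 counts in WT and 0 in both CR libraries, at least 10.8-fold lower taking a floor of 3 counts for the CR group. Its transcripts share 12.9% of their windows with a readthrough transcript annotated as MAGEA10-MAGEA5.

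The remaining MAGEA genes were near or at 0. MAGEA9B had 2 and 4 counts in WT and 0 in CR. MAGEA3, MAGEA5, MAGEA6, MAGEA8 and MAGEA12 had 1 to 3 counts over all libraries, and MAGEA2, MAGEA2B and MAGEA9 had 0. MAGEA2, MAGEA2B and MAGEA9 share 93.2%, 85.2% and 91.3% of their windows with another gene, so their 0 counts do not show that they were silent. MAGEA3 and MAGEA6, whose products bind the ubiquitin ligase TRIM28, share 42.1% and 39.8% of their windows with another gene, in each case mostly with the other of the pair. In CR, MAGEA1 made up 99.8% of the family's counts, against 57.7% in WT.

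MAGEC1 and MAGEC2 fell to 0 to 2 counts in CR. MAGEC1, a large member with a repeated segment (chromosome X, 141903894 to 141909388, plus strand), had 71 and 323 counts in WT and 0 and 2 in CR. It fell from 8.28 ± 7.41 to 0.0409 ± 0.0578 CPM, and WT exceeded CR by 207 times (counting interval 56.9 to 1713). The WT spread is nearly as large as the WT mean, and no CR library came near either WT library. Its log2 fold change was -7.51 (SE 1.15), -8.22 without WT 1, -6.07 without WT 2, -6.58 without CR 1 and -10.6 without CR 2. MAGEC2, which binds TRIM28 and is among the T cell targets of the family (chromosome X, 142202345 to 142205290, minus strand), had 25 and 27 counts in WT and 0 in both CR libraries. That is 1.10 ± 0.0422 CPM against 0, at least 18.2-fold lower. MAGEC3 had 1 count in CR 1 and 0 elsewhere.

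No MAGEB gene passed the filter. MAGEB18 had 5 and 21 counts in WT and 1 and 0 in CR, and MAGEB17 had 2 and 3 in WT and 2 and 4 in CR. MAGEB2, MAGEB4, MAGEB6 and MAGEB16 had 1 to 3 counts in total, all in WT, and the other 5 had 0. Of the 11 MAGEB genes, MAGEB6B shares the most with another gene, 11.7% of its windows.

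SSX genes encode nuclear repressor proteins, and SSX1 and SSX2 are the partners of SS18 in the gene fusion of synovial sarcoma. SSX5 (chromosome X, 48186220 to 48196763, minus strand) had 4 and 5 counts in WT and 541 and 593 in CR. Its level rose from 0.190 ± 0.0269 to 22.9 ± 1.92 CPM, 120.0-fold with a counting interval of 63.0 to 263 (log2 fold change 6.87, SE 0.36). With 1 library left out, this log2 fold change ranged from 6.74 to 7.02. SSX5 shares 4.25% of its windows with another gene, so most of its sequence tells it apart from its relatives.

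SSX6, a neighbour of SSX5 that GENCODE 29 names SSX6P and annotates as a transcribed pseudogene (chromosome X, 48107992 to 48120210, plus strand), was already present in WT. It had 1077 and 655 counts in WT and 1892 and 1961 in CR, or 36.8 ± 13.2 and 77.8 ± 3.46 CPM. The groups do not overlap, but the gene was not called (log2 fold change 1.08, SE 0.29; edgeR adjusted p = 0.0521). It was called in 9 of 12 alternatives, and over all 12 its adjusted p in edgeR, DESeq2 or limma ranged from 1.26e-18 to 0.213. It was not called with near-identical copies summed (1.08) or without CR 1 or CR 2, where the log2 fold changes were 1.13 and 1.05 (1.5 without WT 1 and 0.75 without WT 2). SSX1 had 17 and 16 counts in WT and 7 and 2 in CR and was not called. SSX2B, SSX3 and SSX7 had 2 to 3 counts, all in WT, and SSX2, SSX4, SSX4B, SSX8 and SSX9 had 0. SSX2, SSX4 and SSX4B share 100% of their windows with another gene, so their 0 counts do not show that they were silent. The neighbours SSX5 and SSX1 thus had log2 fold changes of opposite sign, 6.87 and -1.92 (SE 0.68 for SSX1).

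CT45 genes encode small nuclear proteins that have been linked to the response to platinum drugs in ovarian cancer. CT45A1 (chromosome X, 135713453 to 135723539, plus strand) had 10 and 7 counts in WT and 461 and 531 in CR. It rose from 0.361 ± 0.0956 to 20.04 ± 2.38 CPM, 55.6-fold with a counting interval of 34.5 to 95.8 (log2 fold change 5.78, SE 0.36). CT45A10 (chromosome X, 135881063 to 135889086, minus strand) had 0 counts in WT and 22 and 21 in CR, at least 13.7-fold higher. CT45A3, which did not pass the filter, had 2 and 2 counts in WT and 9 and 18 in CR, and CT45A5 had 1 and 2 counts in CR.

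The CT45 copies cannot be separated well. CT45A1 shares 78.9% of its windows with another gene, CT45A3 88.4%, CT45A5 88.5% and CT45A10 67.1%, and CT45A6, CT45A7, CT45A8 and CT45A9 share 100%. The last 4 and CT45A2 had 0 counts. With all 9 copies summed, the counts were 12 and 9 in WT and 493 and 572 in CR, and the summed feature had a log2 fold change of 5.58 (SE 0.35). Which copy the reads came from is uncertain.

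XAGE2, a small relative of the GAGE genes (chromosome X, 52369030 to 52375680, plus strand), was the only XAGE gene with a count. It had 46 and 108 counts in WT and 0 in both CR libraries, a change from 3.25 ± 1.80 CPM to 0, at least 53.9-fold lower. None of its windows occurs in another gene. XAGE1A, XAGE1B, XAGE3 and XAGE5 had 0 counts in all 4 libraries. XAGE1A and XAGE1B share 100% and 76.3% of their windows with each other, so their 0 counts do not show that they were silent.

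The GAGE genes were low in both lines. GAGE2A had 30 and 34 counts in WT and 40 and 34 in CR, or 1.35 ± 0.0981 and 1.49 ± 0.143 CPM, and was not called. GAGE1 had 0 and 4 counts in WT and 14 and 16 in CR and was not called (log2 fold change 2.77, SE 0.94); it was called without WT 2 (6.89) and with no filter on low counts (2.76), and not without WT 1 (1.82). GAGE10 had 0 counts in WT and 6 and 6 in CR, and GAGE2E had 3 and 1 in WT and 0 in CR. The other 9 had 0 counts and share 83.4% to 100% of their windows with another gene, so this does not show that they were silent. GAGE1 and GAGE2A overlap on the same strand, and all 13 GAGE copies summed gave 1.52 ± 0.155 CPM in WT and 2.34 ± 0.0694 in CR, with the summed feature not called.

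PAGE1 (chromosome X, 49687450 to 49695993, minus strand) was the most abundant member. It had 8028 and 6593 counts in WT and 7640 and 8485 in CR, or 310.0 ± 48.0 and 326 ± 30.3 CPM, with overlapping groups. Its log2 fold change was 0.07 (SE 0.19) and it was not called; the sign turned without WT 2 (-0.08) and without CR 2 (-0.01). PAGE1 shares none of its windows with another gene. PAGE2B and PAGE4 had 4 and 3 counts in total, and PAGE2, PAGE3 and PAGE5 had 0.

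PRAME, a substrate receptor of a cullin ubiquitin ligase and a repressor of retinoic acid signalling (chromosome 22, 22547701 to 22559361, minus strand), is the autosomal member. It had 6119 and 4845 counts in WT and 3285 and 3382 in CR, and fell 1.73-fold, with 233 ± 41.9 CPM in WT against 135 ± 5.34 in CR (log2 fold change -0.79, SE 0.20). The call is close to the threshold (edgeR adjusted p = 0.0441). It was lost in 4 of 12 alternatives, where the log2 fold change was -0.75 with upper quartile factors, -0.74 with library size alone, -0.75 without CR 1 and -0.82 without CR 2. Over the 12 alternatives its adjusted p ranged from 4.83e-10 to 0.387. CTAG2 had 1 and 6 counts in WT and 0 in CR, and CTAG1A and CTAG1B, the copies that encode NY-ESO-1, had 0. CTAG1A and CTAG1B share 87.8% and 87.4% of their windows with each other, so their 0 counts do not show that they were silent.

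Each family was also summed, so that a split of counted reads among its copies does not matter; reads that were left out for matching several genes would be missing from the sums too. The MAGEA sum was 13.4 and 28.1 CPM in WT and 91.8 and 97.4 in CR. The CT45 sum was 0.514 and 0.377 CPM in WT and 19.6 and 23.4 in CR, and the SSX sum 47.3 and 28.4 in WT and 97.1 and 104.6 in CR. In these 3 families the CR libraries lay above the WT libraries, as they did in GAGE. The GAGE sum was 1.41 and 1.63 CPM in WT and 2.39 and 2.29 in CR. SSX6, which was not called, held 97.2% of the SSX counts in WT and 77.1% in CR. MAGEA1 held 57.7% of the MAGEA counts in WT and 99.8% in CR, and the other tested MAGEA genes were lower. The MAGEC sum went from 4.11 and 14.7 CPM to 0.0398 and 0.0818, and the MAGEB sum from 0.471 and 1.09 to 0.119 and 0.164. The CR libraries lay below the WT libraries in both, as they did in XAGE and PRAME, while the PAGE sums overlapped. CTAG had 1 and 6 counts in WT and 0 in CR, too few to tell the groups apart. Among single tested genes with an annotated length, the groups lay apart for 55.3%.

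**Figure D2:**
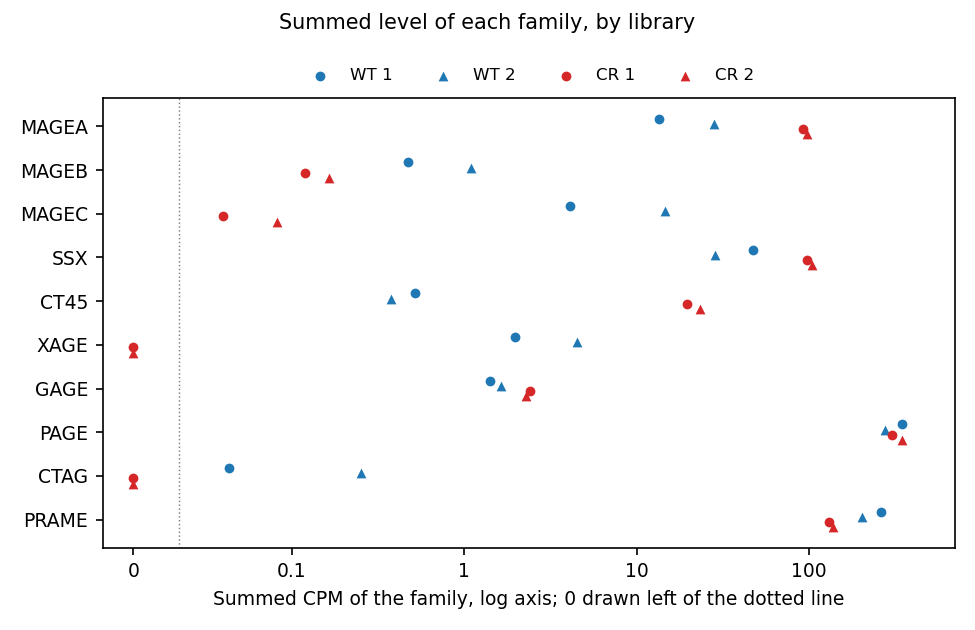
Summed CPM of each family (x axis, log scale, with 0 drawn left of the dotted line) in the 4 libraries. MAGEA, SSX, CT45 and GAGE lie to the right in CR, and MAGEB, MAGEC, XAGE, CTAG and PRAME to the left. PAGE overlaps between 276 and 347 CPM. CTAG rests on 1 and 6 counts in WT and 0 in CR, too few to tell the groups apart.

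Levels of different members were compared per kilobase of exon, as CPM per kilobase of the gene's exons. In WT the order was PAGE1 at 466, PRAME at 61.6, SSX6 at 19.7, MAGEA1 at 7.001 and XAGE2 at 5.25, and the other tested members were at most 2.57. In CR it was PAGE1 at 489.6, MAGEA1 at 55.2, SSX6 at 41.6, PRAME at 35.6, SSX5 at 15.4 and CT45A1 at 15.1, with GAGE2A next at 2.83. By this level MAGEA1 stood above 65.0% of tested genes in WT and 96.4% in CR. SSX5 moved from above 5.70% to above 82.6%, and CT45A1 from above 11.6% to above 82.2%. PAGE1 stood above 99.7% and 99.8%.

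Members that share most of their sequence with other genes had few counts. Of the 30 members with at least 75% of their 75-base windows in another gene's transcripts, 24 had 0 counts and 2, CT45A1 and CT45A3, had at least 10. Of the other 45 members, 12 had 0 counts and 18 had at least 10. Among 14 members with every window shared, 13 had 0 counts and GAGE2E had 4. How reads that match several genes were treated is not given in the sources used here. A count of 0 for a highly shared member does not show that the gene was silent. Of the 32 members that share under 10% of their windows, 10 had 0 counts, among them MAGEB3, MAGEB5, PAGE3, XAGE3 and XAGE5.

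**Figure D3:**
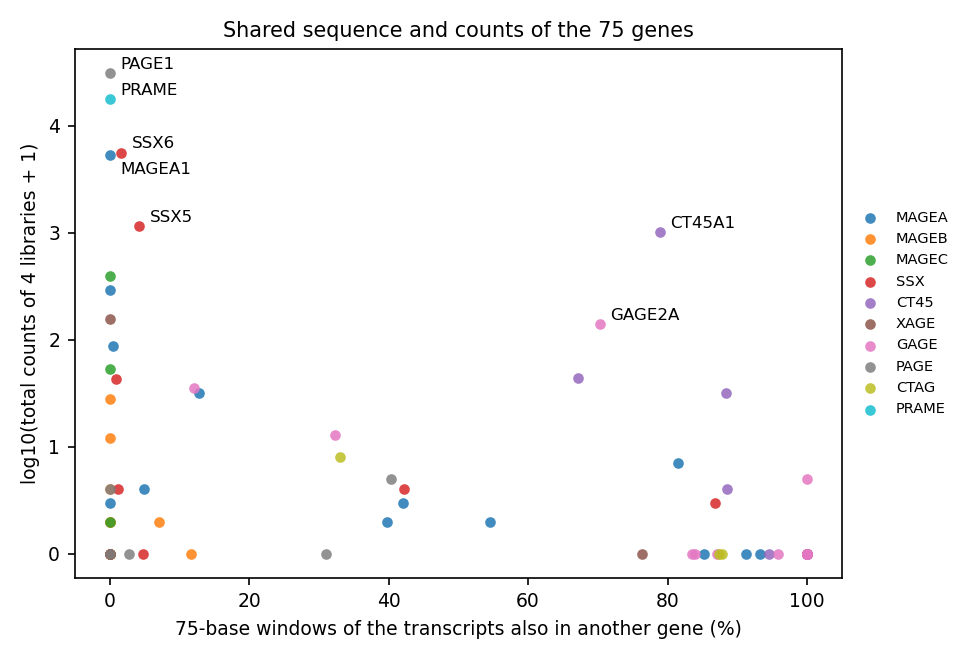
Share of each gene's 75-base transcript windows that also occur in another gene (x axis, percent) against log10 of its total counts over the 4 libraries plus 1 (y axis), coloured by family. PAGE1, PRAME, SSX6, MAGEA1 and SSX5 share under 5%, CT45A1 is the only abundant gene at a high share, and 24 of the 30 genes at 75% or more lie at 0 counts.

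The 2 WT libraries differed from each other in some members and not in others, a comparison chosen after the data were seen. Of 13 members with at least 20 counts over both WT libraries, 5 were at least 2-fold higher in WT 2 in CPM: MAGEC1 (3.04 and 13.5), MAGEB18 (0.214 and 0.879), MAGEA11 (3.51 and 8.79), MAGEA1 (6.98 and 17.0) and XAGE2 (1.97 and 4.52). MAGEC2, MAGEA10 and GAGE2A had ratios of WT 2 to WT 1 between 1.04 and 1.11, and SSX6, at 0.595, and MAGEA4, at 0.626, were lower in WT 2. Over all tested genes with that many counts, 6.22% were at least 2-fold higher in WT 2 and 8.99% at least 2-fold higher in WT 1. MAGEB18, 1 of the 5, did not pass the filter on low counts and is not among those genes. In CR, 4 of these 5 had 0 to 2 counts in each library, while MAGEA1 was higher. MAGEC2 and MAGEA10, whose WT libraries were close, also had 0 counts in both CR libraries.

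The order of the members along chromosome X is a description, with no test. SSX5, which was higher, lies on the short arm, as do XAGE2, which had 0 counts in CR, and PAGE1, which was not called. CT45A1, CT45A10 and MAGEA1 lie on the long arm, and the 5 tested members between them, MAGEC1, MAGEC2, MAGEA11, MAGEA4 and MAGEA10, were all lower. The nearest tested protein-coding gene that is no member was found on each side of the 15 tested members of chromosome X, a choice made after the members' values were seen. These were 17 different genes at 0.119 to 6003 kilobases (median 267), of which 2 were higher, 2 lower and 13 not called. Among all 539 tested genes of chromosome X outside the families 18.7% were called, 8.35% as higher and 10.4% as lower.

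The flanking genes that were called are PPP1R3F, SAGE1, GPR173 and GABRQ. SAGE1, itself a cancer-testis gene that starts 119 bases from CT45A10, had 15 and 9 counts in WT and 64 and 56 in CR and was higher (log2 fold change 2.24, SE 0.47). PPP1R3F, a regulator of glycogen metabolism before the GAGE cluster, had 82 and 43 counts in WT and 249 and 270 in CR. GABRQ, a GABA receptor subunit beyond MAGEA10, had 313 and 583 counts in WT and 0 in both CR libraries, and GPR173, an orphan receptor beyond XAGE2, had 155 and 79 and then 0 and 1. TMEM185A and CXorf40B beside MAGEA11, LDOC1 beside MAGEC1 and PNMA6A and ZNF275 beside MAGEA1 were not called.

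**Figure D4:**
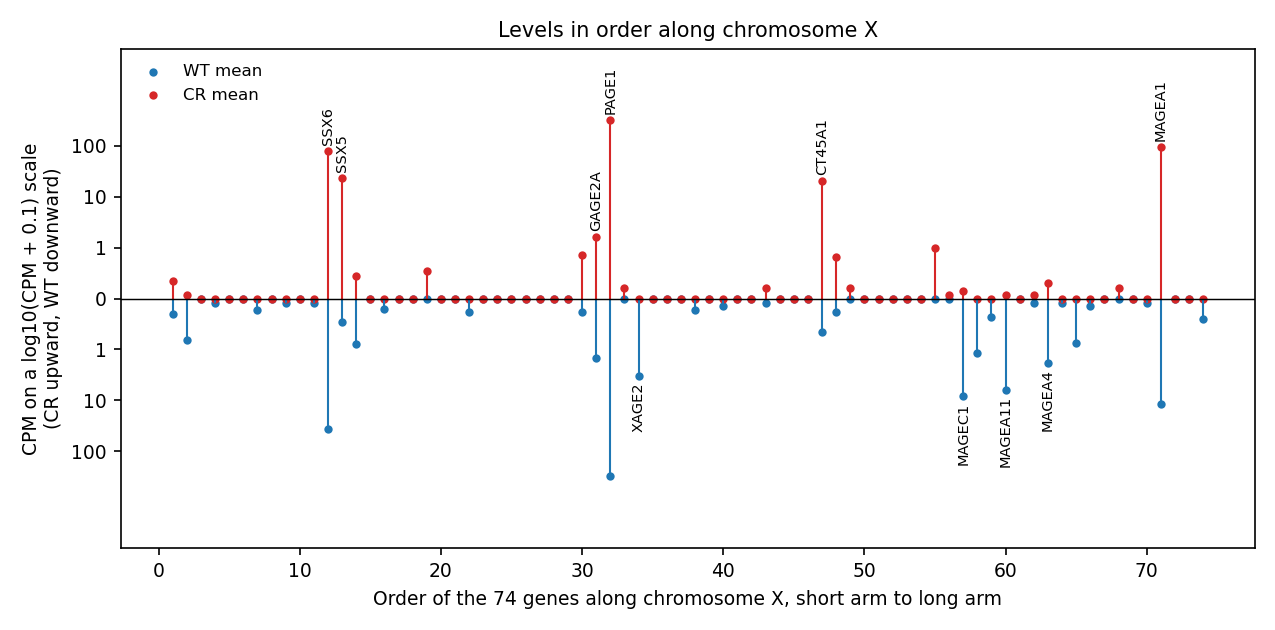
Mean CPM of the 74 genes on chromosome X in their order from the short to the long arm (x axis), on a log10(CPM + 0.1) scale with CR drawn upward and WT downward. SSX5, CT45A1 and MAGEA1 are tall in CR, XAGE2, MAGEC1, MAGEA11 and MAGEA4 stand out in WT, and PAGE1 is tall in both.

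Cancer-testis genes outside these families were looked at in the same fit. Of 43 other X-linked genes found, 5 were tested; SAGE1 and CT55 were higher and PLAC1 was lower. PLAC1, a placenta-specific gene, fell from 3.11 ± 0.399 to 0.122 ± 0.116 CPM, and CT55 had 0 and 2 counts in WT and 11 and 24 in CR. Without CR 1 or CR 2 the higher calls numbered 1 and 0, and the lower calls numbered 2 in each; without WT 1 or WT 2 the lower calls numbered 3 and 2. Of 69 autosomal cancer-testis and germline genes, 35 were tested, 6 were higher and 1 was lower, against 5.44% and 8.1% of all genes tested. STAG3, a meiotic cohesin subunit, rose from 3.60 ± 0.118 to 228 ± 17.1 CPM, SYCP2, of the meiotic chromosome axis, from 0.380 ± 0.114 to 77.4 ± 10.2, and MEIOB, a meiotic recombination factor, from 1.21 ± 0.708 to 29.2 ± 3.24. MSH4, a meiotic mismatch repair homologue, rose from 1.21 ± 0.250 to 4.52 ± 0.429 CPM. The 1 lower gene, ACRBP, which encodes a protein of the sperm acrosome and is named here after its values were seen, fell from 3.01 ± 0.288 to 0.928 ± 0.0393 CPM. The median log2 fold change of the tested autosomal genes was 0.20, and the higher calls numbered 10 without WT 1, 10 without WT 2, 4 without CR 1 and 3 without CR 2. The lower calls numbered 3, 6, 0 and 0 in the same order.

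Of 6 tested genes among the broadly expressed MAGE genes, which are not restricted to the testis, 1 was called. Over all genes tested the share called was 13.5%. TRO, which encodes trophinin, fell from 9.09 ± 0.056 to 0.744 ± 0.243 CPM. MAGED1 (307 ± 1.01 and 268 ± 2.29 CPM), MAGED2 (202 ± 11.7 and 162 ± 2.01) and MAGEF1 (36.7 ± 7.87 and 25.5 ± 1.57) were not called. The median log2 fold change of this list was -0.26, and 3 of its genes were lower without WT 2. Of 16 tested ubiquitin ligase partners of MAGE proteins and PRAME, edgeR's quasi-likelihood test called 0, with 1 at an unadjusted p under 0.05, and DESeq2 and limma-voom each called 0. The level of TRIM28 was 589 ± 192 CPM in WT against 406 ± 16.7 in CR, and that of PJA1 52.7 ± 1.74 and 76.6 ± 1.04. Without WT 1 there were 3 higher and 2 lower partners, and without WT 2 there were 2 higher and 3 lower.

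Factors of DNA methylation and of silencing showed 2 higher and 2 lower calls among 48 tested, where 13.5% of all genes tested were called. CDCA7L rose from 1 count over both WT libraries to 1041 and 951 counts in CR, and MPHOSPH8, of a complex that silences genes and repeats, from 101 ± 13.3 to 179 ± 0.922 CPM. DNMT3A, a DNA methyltransferase, fell from 37.8 ± 3.18 to 20.3 ± 1.61 CPM, and KDM5C, a histone demethylase, from 288 ± 25.1 to 176 ± 12.1 CPM. The median log2 fold change of this list was -0.08. Without WT 1 there were 8 higher and 17 lower genes, without WT 2 there were 14 of each, and without CR 1 or CR 2 there were 1 higher and 0 lower in each fit. With upper quartile factors 0 genes of this list were lower, and with library size alone 1 was, so the calls of DNMT3A and KDM5C depend on the scaling and on both CR libraries. Of the 22 genes of antigen presentation, the route by which these antigens are shown to T cells, 13 were lower in CR, against 8.1% of all genes tested, with a median log2 fold change of -1.01. Among them were subunits of the immunoproteasome: PSMB8 had 162 ± 10.5 CPM in WT against 0.343 ± 0.022 in CR, and PSMB9 83.4 ± 1.27 against 6.24 ± 0.89. Counts of HLA genes are uncertain because the genes vary between people and resemble each other, and 7 of the 22 were called lower when CR 1 was left out and 7 when CR 2 was left out.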

How the data were processed

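RNA sequencing libraries of IGROV1 cells, 2 wild-type and 2 cisplatin-resistant, were compared. The deposited values are raw read counts per gene; the submitters' processing notes name STAR 2.5.1a, HTSeq, DESeq and GRCh38.p7. How HTSeq treated strand and reads matching several genes is not given in the sources used here. A deposited table of normalized values was not used.

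Members were matched by symbol, and positions and exon lengths come from GENCODE 29. The members, gene lists and tests were chosen with earlier results of these data known. Counts were filtered (filterByExpr, minimum count 10), scaled by TMM and tested by group with edgeR 4.0.16 (quasi-likelihood test, called at p of 0.05 or less after Benjamini-Hochberg adjustment; R 4.3.3), after a test on simulated data. DESeq2 1.42.0 and limma 3.58.1 (voom) were alternatives, with other scalings, no filter, a replicate block, copies summed and each library left out. Members with at least 10 counts in total are named with full values. Genes named from the lists are among the 4 with the lowest adjusted p in their list. The exceptions are ACRBP, CDH1 and EPCAM, named after their values were seen, and marker genes listed at 0 counts. Folds are ratios of summed counts scaled by TMM-adjusted library sizes. Against 0 counts, 3 counts over the group are the floor. Exact 95% intervals and floors cover counting error only. With 2 libraries on each side, the smallest p of a two-sided exact permutation is 0.333, so none was used. Shared sequence is the share of 75-base transcript windows found in another gene. The grouping of copies by window sharing, the flanking genes, the comparison within WT and the promoters shown were chosen after seeing the data.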

Additional observations from a re-analysis of the deposited data

How the results depend on the processing

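Members called higher numbered 4 and 3 to 6 over the alternatives, and members called lower 7 and 5 to 8. Over all genes, edgeR called 2344; 3346 were called with no filter on low counts, 2605 by DESeq2, 2775 with the replicate block, and 1420 to 7879 with 1 library left out. The lowest number of members called higher, 3, came with copies summed. There CT45A1 and CT45A10 entered 1 summed CT45 feature that was not counted as a member. That feature was itself called higher (log2 fold change 5.58). The replicate block gave 6 members higher and 7 lower, and under it SSX6 (log2 fold change 1.13) and GAGE1 (2.93) were called. The numbers are not known to pair the cultures, since the labels do not say so. The differences WT 1 minus WT 2 and CR 1 minus CR 2 had a correlation of -0.174 over genes. That value cannot settle the pairing, because genes are not replicates. Calls over all comparison lists numbered 38, with 22 to 86 when 1 library was left out. With at least 10 counts in place of 1 as detection, 13, 13, 9 and 10 members were detected in WT 1, WT 2, CR 1 and CR 2, against 25, 30, 20 and 18. Of 188 values for single members, 169 kept their direction and side of the threshold, 12 passed it, 5 lost it and 2 reversed. Both reversals were PAGE1, whose log2 fold change of 0.07 ranged from -0.080 (without WT 2) to 0.23 (without WT 1) and was -0.01 without CR 2. The cause of these changes was not tested. The planned grouping of copies by protein identity was not run. Members with under 10 counts are limited by depth.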
